A study of Mus musculus with 37 samples.

Results

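The genes described here carry signals of activin and transforming growth factor β (TGF-β): the ligands INHBA and TGFB1, the receptors TGFBR1 and TGFBR2, the signal transducer SMAD3, and the inhibitors SMAD7, SKIL and TGIF1. They were 8 of 60708 gene IDs counted. The list was chosen by the measured counts of INHBA, which were lower with SPP1 in RAW264.7 medium, and was filled with genes of the same pathway. Their values on that contrast are therefore given as a description with no test. The symbols came with the list of IDs, because the count table pairs no ID with a name. In the order above, the rows were ENSG00000122641.11, ENSG00000105329.11, ENSG00000106799.13, ENSG00000163513.19, ENSG00000166949.17, ENSG00000101665.10, ENSG00000136603.14 and ENSG00000177426.22.

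Spleen cells from FVB mice of wild-type genotype were cultured for 48 h with RAW264.7, a macrophage-like cell line of mouse origin, or with medium that the line had conditioned. Before that, the RAW264.7 cells had spent 72 h in normoxia (21% O2) or hypoxia (1% O2), with or without recombinant SPP1 (osteopontin, a secreted ligand of integrins and CD44) at 1 µg/mL. Per the labels, the spleen cells met either the medium, the unwashed RAW264.7 cells or the RAW264.7 cells after a media wash. These 3 kinds of exposure are called medium, cells and washed. With both oxygen levels and both SPP1 states they gave 12 groups, and naive spleen cells, which met neither RAW264.7 cells nor their medium, were the 13th. SPP1 was added to the RAW264.7 medium, so spleen cells in the medium and cells groups may have met it directly. Direct SPP1 and an effect through the line cannot be told apart there. Of the 37 libraries, 11 were medium, 12 cells, 12 washed and 2 naive. Every group had 3 libraries except naive and the normoxic medium without SPP1, which had 2 each. The labels do not say whether the naive spleen cells were kept in culture for 48 h, nor whether replicates came from separate mice, so p-values measure the spread between these libraries. In the cells and washed groups RAW264.7 cells shared the well with the spleen cells. Per the paper's methods, Brefeldin A was added to the co-cultures after the 48 h, and whether naive spleen cells received it is not stated. If they did not, its effect cannot be told apart from that of exposure. The paper states that spleen cells were harvested for sequencing, and a legend speaks of lymphocytes isolated from the co-cultures. It describes no sort at this step, so carried-over RNA of the line cannot be told apart from that of the spleen cells. In such bulk RNA, fewer cells of a type and less RNA per cell cannot be told apart either.

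Activins and TGF-βs are secreted dimers that bind a type II receptor, which then phosphorylates a type I receptor. The active type I receptor phosphorylates SMAD proteins such as SMAD3, which move to the nucleus and change transcription. In the spleen, TGF-β is known for restraining T cell activation and for driving the formation of regulatory T cells, and activin A is made by activated macrophages and other myeloid cells. The pathway limits itself: SMAD7 is induced by the signal and blocks the type I receptor, whereas SKIL and TGIF1 are nuclear repressors that act on SMAD complexes.

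Libraries held between 631574 and 1337314 counts (median 1063211), so that 3 counts, the limit that a count of 0 allows, correspond to 2.01 to 4.97 CPM (counts scaled to the total of a library's tested IDs, adjusted by TMM for differences in composition). These were mouse reads aligned to a human genome. A count is thus a read that matched the human gene, levels of different genes cannot be compared, and a read may derive from a related gene. Tests used edgeR's quasi-likelihood model across 5193 IDs that passed a filter on low counts, with Benjamini-Hochberg adjustment over all of them, and a difference is called at an adjusted p under 0.05. Some libraries stood apart in a principal component analysis of these IDs. On the first component (33.2% of the variance), 2 medium libraries, hypoxia without SPP1 replicate 1 and normoxia without SPP1 replicate 3, lay at −11.6 and −10.7, whereas the other 9 medium libraries lay between −57.5 and −41.5. On the second component (12.3%), 4 libraries with RAW264.7 cells stood apart: washed hypoxia with SPP1 replicate 1, washed normoxia with SPP1 replicates 1 and 2, and cells hypoxia without SPP1 replicate 2. Tested differences are given with all libraries first and then without those that stood apart.

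Of the 8 genes, 5 passed the filter and 3 did not. INHBA had a mean of 38.5 counts per library (2 to 459), TGFBR1 19.7 (4 to 131), TGFBR2 11.5 (2 to 23), SMAD7 109 (16 to 376) and SKIL 92.8 (3 to 262). TGFB1, the ligand TGF-β1, was poorly captured, with a mean of 1.76 counts and 9 libraries at 0. SMAD3, the transducer of both TGF-β and activin signals, was also poorly captured, with a mean of 0.405 counts and 26 libraries at 0. TGIF1 had a mean of 2.68 counts, with 2 libraries at 0. The threshold for poor capture was a mean of 10 counts, so TGIF1 was poorly captured as well. TGFBR2 was the nearest gene above the threshold and TGIF1 the nearest below. A gene's passing depended in part on being high in some group, so the 5 tested genes do not stand for all 8.

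**Figure D1:**
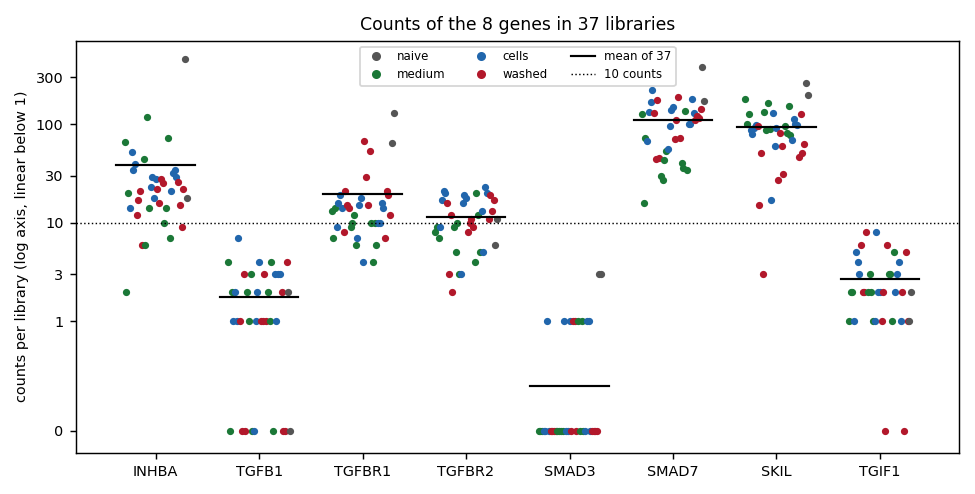
Counts per library (vertical axis, log scale above 1 and linear below) of the 8 genes, with 1 point per library coloured by kind of exposure and a bar at the mean of the 37 libraries. The points of SMAD3, TGFB1 and TGIF1 lie below the dotted line at 10 counts, whereas SMAD7 reaches 376 and INHBA 459 in a naive library.

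INHBA encodes the βA subunit that pairs with itself to form activin A. Its levels across the 13 groups ran from a mean of 236 CPM in naive cells to 6.68 CPM in hypoxic medium with SPP1. The naive mean hid a wide gap between its libraries: naive replicate 1 had 448 CPM (459 counts) and naive replicate 2 had 23.4 CPM (18 counts). On the log2 CPM scale they differed by 4.15, and only 4 of the 5193 IDs (0.077%) differed more between these libraries. The naive level of INHBA was thus set by 1 library.

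Among the exposed cultures, INHBA was highest in medium without SPP1. In normoxia without SPP1 the medium libraries had 79.6 and 50.2 CPM, and in hypoxia without SPP1 they had 50.9, 39.9 and 8.70 CPM. With SPP1 the values were 15.8, 13.4 and 7.14 CPM in normoxic medium and 1.93, 5.55 and 12.6 CPM in hypoxic medium. All but 1 of the 5 libraries without SPP1 lay above all 6 with it, the exception being hypoxia replicate 3. This is the contrast by which INHBA was chosen: 45.8 ± 25.5 CPM (SD, n = 5) without SPP1 against 9.40 ± 5.35 CPM (SD, n = 6) with it, a log2 difference of −2.34 or 5.05-fold lower. Without the 2 medium libraries that stood apart, both of which belong to the SPP1-free groups and had 50.9 and 50.2 CPM, it was −2.23. Of the 5193 IDs, 0.25% were called on this contrast, a share that is no measure of INHBA, since the contrast chose it.

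In the cultures that held RAW264.7 cells, INHBA kept to a narrower range. The 12 cells libraries ranged from 16.8 to 41.5 CPM (median 25.1) and the 12 washed libraries from 9.32 to 29.0 CPM (median 20.9). With SPP1 the cells libraries had 27.8 ± 7.31 CPM (SD, n = 6) and without it 23.6 ± 6.05 CPM (SD, n = 6), a log2 difference of 0.23 with a 95% interval of −0.65 to 1.12. In washed cultures the difference was −0.10, with an interval of −1.04 to 0.85. Whether these values differ from the one in medium was not tested, since that value chose the gene. In the order of group means, none of the 12 pairs of neighbouring groups was separated by the ranges of their libraries. Groups were small, and how many of all IDs have separated neighbours was not counted, for INHBA or the genes below.

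**Figure D2:**
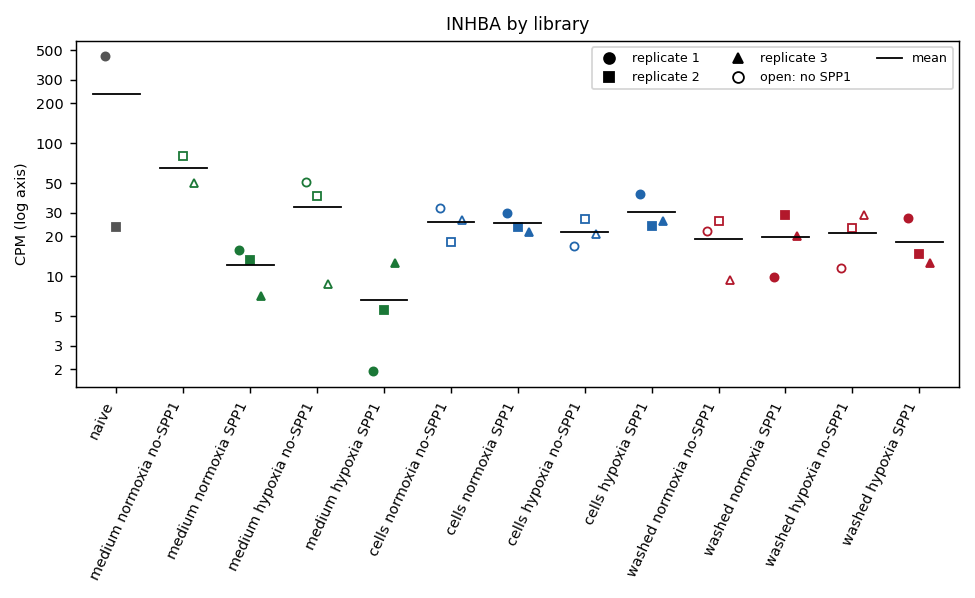
INHBA in CPM on a log axis for each library of the 13 groups, with a bar at the group mean and open symbols for groups without SPP1. The naive libraries lie at 448 and 23.4 CPM, medium without SPP1 reaches 79.6 CPM, medium with SPP1 stays at or below 15.8 CPM, and the cells and washed groups lie between 9.32 and 41.5 CPM.

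TGFB1 gave at most 7 counts in a library, in cells normoxia with SPP1 replicate 1, and 2 and 0 counts in the naive libraries. It did not pass the filter, and when no filter was used none of its comparisons was called (smallest adjusted p = 0.997, edgeR).

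TGFBR1 is the type I receptor that phosphorylates SMAD proteins. It was highest in naive cells, with 62.5 and 171 CPM, and had its lowest median in medium, where the 11 libraries ranged from 3.59 to 11.1 CPM (median 8.02). The 12 cells libraries ranged from 3.35 to 18.1 CPM (median 10.8), and the 12 washed libraries from 7.71 to 70.9 CPM (median 18.7). The washed group was the most uneven, since replicate 2 of hypoxia without SPP1 had 70.9 CPM against 7.71 and 7.80 CPM in its fellow replicates. Replicate 2 of normoxia with SPP1 had 61.3 CPM beside 23.2 and 10.9 CPM. Both naive libraries lay above every medium and every cells library, and naive replicate 1 lay below the highest washed one. In the order of group means only the naive group was separated from its neighbour, washed normoxia with SPP1, and the other 11 neighbouring pairs overlapped.

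TGFBR2 is the type II receptor that binds TGF-β. It was close to the limit of capture and its 37 libraries lay within 2.86 and 20.0 CPM. Naive cells had 5.86 and 14.3 CPM, medium 2.86 to 18.0 CPM (median 6.17), cells 3.51 to 20.0 CPM (median 14.2) and washed 3.31 to 16.0 CPM (median 11.3). The highest groups were cells in normoxia without SPP1 at 20.0, 19.0 and 18.0 CPM and cells in normoxia with SPP1 at 15.4, 15.1 and 14.8 CPM. Both were separated by their ranges from the next group in the order of means, and the other 10 neighbouring pairs overlapped. The share of all IDs with such gaps was not counted, and TGFBR2 did not pass the test over all groups (adjusted p = 0.141, edgeR).

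SMAD3 gave 3 counts in each naive library and 0 or 1 in each of the 35 exposed libraries. All of these values are at or below the 3 counts that a count of 0 allows, so no fold is given.

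SMAD7, the inhibitory SMAD, had 367 and 223 CPM in naive cells. The medium libraries ranged from 15.5 to 97.9 CPM (median 34.7), the cells libraries from 65.6 to 172 CPM (median 101) and the washed libraries from 70.8 to 181 CPM (median 110). The naive libraries lay above all others, and the order naive, then cultures with RAW264.7 cells, then medium, was broken only by the 2 medium libraries that stood apart, which had 97.9 and 94.9 CPM. The other 9 medium libraries ranged from 15.5 to 57.8 CPM, below all 24 libraries with RAW264.7 cells. For cells libraries alone, 5.3% of IDs were likewise separated from those 9, and no share was computed with the washed libraries added. The lowest group was hypoxic medium with SPP1, with 15.5, 25.0 and 32.3 CPM, and its range was separated from its neighbour, normoxic medium with SPP1, at 34.7 to 57.8 CPM.

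SKIL, which encodes the SMAD co-repressor SnoN, had nearly equal values in naive cells, 256 and 259 CPM. Medium libraries ranged from 73.7 to 139 CPM (median 95.8), cells libraries from 19.9 to 108 CPM (median 76.0) and washed libraries from 4.97 to 106 CPM (median 52.8). Both naive libraries were above all 35 others. The 3 washed libraries that stood apart were the ones with 35.8, 24.1 and 4.97 CPM, and the cells library that stood apart was the lowest of its kind at 19.9 CPM. Without them the washed range was 28.2 to 106 CPM and the cells range 60.0 to 108 CPM.

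TGIF1, a homeobox repressor, gave 0 to 8 counts, and the naive libraries, with 1 and 2 counts, lay within that range.

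**Figure D3:**
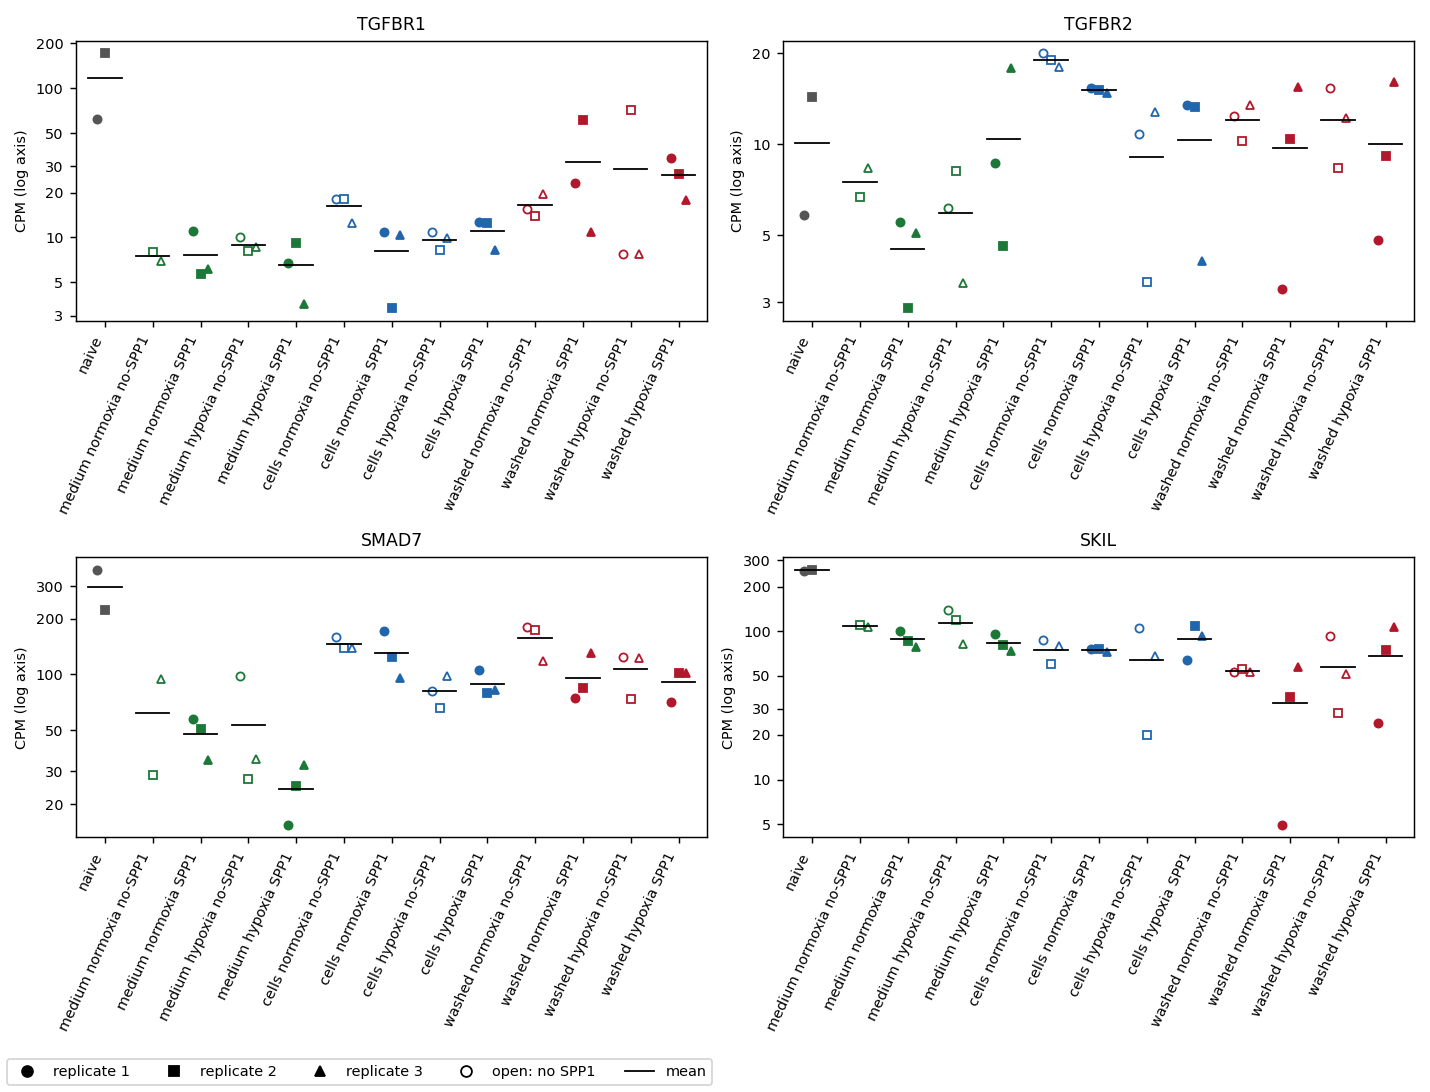
CPM on log axes of TGFBR1, TGFBR2, SMAD7 and SKIL for each library of the 13 groups, with a bar at the group mean and open symbols for groups without SPP1. SMAD7 and SKIL are highest in the naive libraries, the medium libraries have the lowest median of TGFBR1 (8.02 CPM) and SMAD7 (34.7 CPM), and single washed libraries reach 70.9 CPM for TGFBR1 and 4.97 CPM for SKIL.

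Differences among all 13 groups were tested for the 4 measured genes other than INHBA, since that test holds the contrast by which INHBA was chosen. SMAD7 (adjusted p = 1.48e-06), TGFBR1 (adjusted p = 3.57e-06) and SKIL (adjusted p = 0.00191) differed by edgeR's quasi-likelihood test, and TGFBR2 did not pass (adjusted p = 0.141). That is 3 of 4 genes beside 53.6% of all IDs called. The same 3 passed without the 2 medium libraries and without the 4 libraries with RAW264.7 cells that stood apart, where TGFBR2 had an adjusted p of 0.232 and 0.0605 (edgeR).

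Exposure to RAW264.7 medium or cells was compared with the naive state first. INHBA, TGFBR1, SMAD7 and SKIL were lower than naive in all 3 kinds of exposure, and TGFBR2 was not called in any. That is 4 of 5 genes lower in each, beside 15.3% of all IDs called lower in medium, 13.4% in cells and 17.1% in washed cultures. Without naive replicate 1 alone, 3 genes were called lower in medium and 2 each in cells and washed cultures. The median log2 difference of the 5 genes was −2.73 in medium, −1.77 in cells and −2.22 in washed cultures, beside 0.11, 0.04 and 0.04 over all IDs. The 3 comparisons share the same naive libraries.

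TGFBR1 was lower by a log2 difference of −3.90 ± 0.44 (SE; adjusted p = 3.81e-08, edgeR) in medium and −3.39 in cells (adjusted p = 2.47e-07), and by −2.22 ± 0.44 (adjusted p = 0.000178) in washed cultures. The first pair held without either naive library, whereas in washed cultures the difference was −1.31 without naive replicate 2 (adjusted p = 0.171, edgeR). SKIL was lower by −1.40 in medium (adjusted p = 0.00486, edgeR), by −1.77 in cells (adjusted p = 0.000369) and by −2.30 in washed cultures (adjusted p = 6.54e-06). In medium SKIL kept its size without naive replicate 2 (−1.41) but not its call (adjusted p = 0.0687, edgeR).

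SMAD7 was lower by −2.73 ± 0.30 (SE; adjusted p = 2.54e-08, edgeR) in medium, by −1.44 in cells (adjusted p = 0.000617) and by −1.41 in washed cultures (adjusted p = 0.000618). Leaving out naive replicate 1 gave −0.95 in cells (adjusted p = 0.119, edgeR) and −0.91 in washed cultures (adjusted p = 0.123), and the medium call stayed. All SMAD7 and SKIL libraries of each kind lay below both naive libraries, as did all TGFBR1 libraries in medium and cells. Ranges lay below naive without overlap for 14.5% of IDs in medium, 13.3% in cells and 13.7% in washed cultures.

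INHBA had log2 differences from naive of −3.52 in medium, −3.21 in cells and −3.60 in washed cultures (adjusted p = 3.32e-07, 7.71e-07 and 1.03e-07, edgeR). Each of them rested on naive replicate 1. Without naive replicate 1 they were −0.11, 0.21 and −0.18 (adjusted p = 0.928, 0.868 and 0.886, edgeR), and the value in cells changed direction. Leaving out the libraries that stood apart removed none of the 4 calls in any of the 3 kinds of exposure. In medium the log2 differences were then −3.54 for INHBA, −3.82 for TGFBR1, −3.16 for SMAD7 and −1.38 for SKIL. In cells they were −3.24, −3.31, −1.37 and −1.62, and in washed cultures −3.67, −2.59, −1.23 and −1.97, in the same order. The libraries of medium are also those by which INHBA was chosen.

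**Figure D4:**
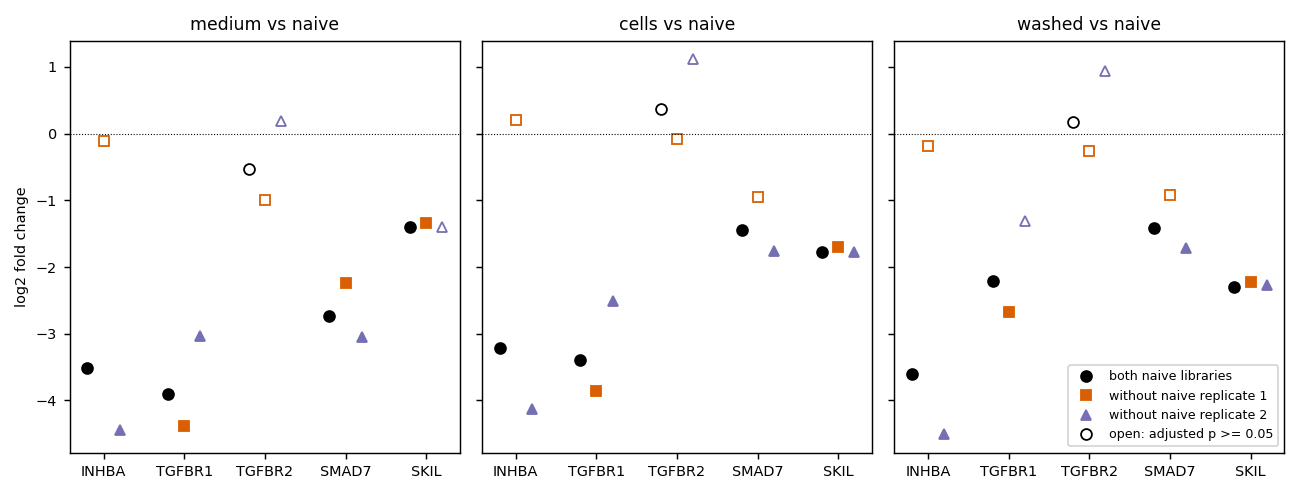
Log2 fold change against naive cells of the 5 tested genes in medium, cells and washed cultures, with both naive libraries (circles), without naive replicate 1 (squares) and without naive replicate 2 (triangles), open where the adjusted p was 0.05 or more. The INHBA values move from −3.52, −3.21 and −3.60 to −0.11, 0.21 and −0.18 without naive replicate 1, whereas those of SKIL barely move.

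The presence of RAW264.7 cells was then compared with their medium alone. SMAD7 and TGFBR2 were higher in cells than in medium, which is 2 of 5 genes beside 23.4% of all IDs called higher (48.7% in either direction). SMAD7 was 2.45-fold higher (log2 1.29 ± 0.20, SE; adjusted p = 3.00e-06, edgeR), with means of 112 ± 34.3 CPM (SD, n = 12) and 45.4 ± 27.8 CPM (SD, n = 11). TGFBR2 was 1.87-fold higher (log2 0.91 ± 0.28, SE; adjusted p = 0.00843, edgeR), at 13.4 ± 5.19 CPM (SD, n = 12) against 7.06 ± 4.10 CPM (SD, n = 11). The other genes did not pass, with log2 differences of 0.31 for INHBA, 0.51 for TGFBR1 and −0.38 for SKIL (adjusted p = 0.462, 0.221 and 0.187, edgeR). INHBA was chosen by values of these medium libraries, so its p-value is no independent test. Without the 2 medium libraries that stood apart the SMAD7 difference was 1.75, and no cells library then overlapped with a medium one, as was true in this direction of 5.3% of IDs. With all medium libraries the ranges of SMAD7 overlapped, while 1.77% of IDs were separated in this direction. Without those 2 medium libraries TGFBR2 was 0.95 (adjusted p = 0.0188, edgeR), and without the 4 libraries with RAW264.7 cells that stood apart SMAD7 was 1.31 and TGFBR2 0.98.

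In washed cultures TGFBR1, SMAD7 and TGFBR2 were higher than in medium and SKIL was lower, beside 28.6% of all IDs called higher and 30.2% called lower. TGFBR1 was 3.22-fold higher (log2 1.69 ± 0.33, SE; adjusted p = 4.02e-05, edgeR), at 25.8 ± 20.4 CPM (SD, n = 12) against 7.67 ± 2.13 CPM (SD, n = 11). SMAD7 was 2.50-fold higher (log2 1.32 ± 0.21, SE; adjusted p = 1.30e-06, edgeR) and 1.77 on the log2 scale without the 2 medium libraries that stood apart. SKIL was 1.87-fold lower (log2 −0.90 ± 0.24, SE; adjusted p = 0.00146, edgeR), at 53.0 ± 28.5 CPM (SD, n = 12) against 97.4 ± 20.0 CPM (SD, n = 11). Without the 4 libraries with RAW264.7 cells that stood apart, the log2 difference of SKIL was −0.64 (adjusted p = 0.00208, edgeR) that of TGFBR1 was 1.24 (adjusted p = 0.00286), and that of SMAD7 was 1.44. TGFBR2 was 1.63-fold higher (log2 0.71 ± 0.29, SE; adjusted p = 0.0346, edgeR), a call that was lost in 10 of 30 alternatives. It was 0.74 without the 2 medium libraries that stood apart (adjusted p = 0.0601, edgeR) and 0.91 without the 4 libraries with RAW264.7 cells (adjusted p = 0.00682). INHBA, which was chosen by values of the medium libraries, differed by −0.09 (adjusted p = 0.847, edgeR). The median of the 5 genes was 0.71, beside −0.03 over all IDs, and in cells against medium it was 0.51 beside −0.02.

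Washed and unwashed RAW264.7 cells were compared directly as well. TGFBR1 was higher in washed cultures by 2.26-fold (log2 1.18 ± 0.31, SE; adjusted p = 0.0164, edgeR), the only call among the 5 genes, beside 4.16% of IDs called higher. This value leaned on few libraries: without washed hypoxia without SPP1 replicate 2 it was 0.71 (adjusted p = 0.115, edgeR), without washed normoxia with SPP1 replicate 2 it was 0.96 (adjusted p = 0.0520), and without the 4 libraries that stood apart it was 0.72 (adjusted p = 0.244). The log2 differences of INHBA, TGFBR2, SMAD7 and SKIL were −0.39, −0.20, 0.03 and −0.53, and none passed (adjusted p = 0.493, 0.706, 0.954 and 0.154, edgeR), nor without the 4 libraries, at −0.44, −0.08, 0.14 and −0.35. SKIL passed without washed normoxia with SPP1 replicate 3, at −0.67 (adjusted p = 0.0472, edgeR).

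**Figure D5:**
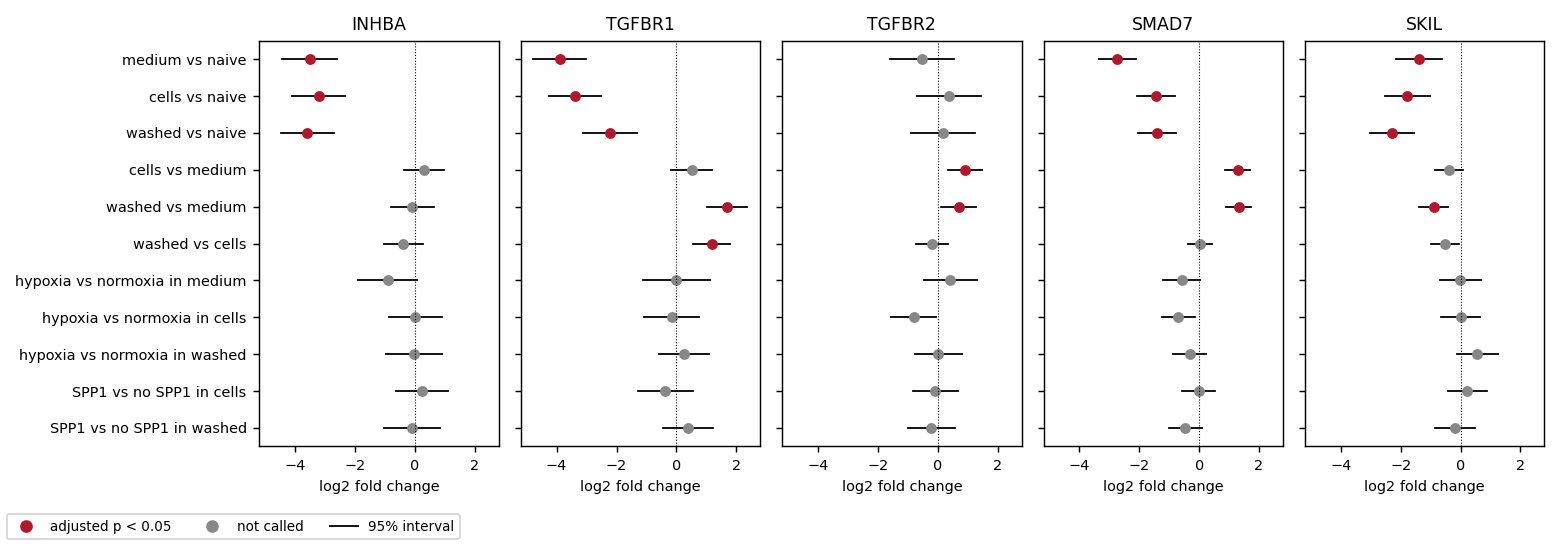
Log2 fold change (horizontal axis) with its 95% interval for the 5 tested genes in 11 comparisons, red where the adjusted p was under 0.05. The called values are those against naive for every gene but TGFBR2, those of SMAD7 and TGFBR2 in cells and washed cultures against medium, those of TGFBR1 and SKIL in washed cultures against medium, and TGFBR1 in washed against cells.

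The oxygen level at which the RAW264.7 cells had been kept was compared within each kind of exposure. None of the 5 genes was called in medium, cells or washed cultures by edgeR or by DESeq2, beside 0.077%, 3.62% and 0.0385% of IDs called by edgeR. At an unadjusted p under 0.05, 2 of the 5 passed in cells and 0 in medium and washed cultures. Those 2 were TGFBR2 and SMAD7. TGFBR2 had 3.51, 4.10, 10.8, 12.8, 13.2 and 13.6 CPM in the hypoxic cells libraries and 14.8 to 20.0 CPM in the normoxic ones, a log2 difference of −0.80 with a 95% interval of −1.55 to −0.04 (adjusted p = 0.251, edgeR). The ranges did not overlap, as was the case in this direction for 2.18% of IDs. SMAD7 had 65.6 to 105 CPM (median 82.3, n = 6) in hypoxic and 96.3 to 172 CPM (median 139, n = 6) in normoxic cells libraries, with overlapping ranges and a log2 difference of −0.69 (adjusted p = 0.152, edgeR). Without the 4 libraries that stood apart, of which 1 was a cells library, the differences were −0.59 for TGFBR2 and −0.61 for SMAD7 (adjusted p = 0.364 and 0.209, edgeR). When only the cells groups entered the model, SMAD7 was called, at −0.67 (adjusted p = 0.0309, edgeR).

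In medium, hypoxia gave log2 differences of −0.91 for INHBA, with a 95% interval of −1.89 to 0.08 (adjusted p = 0.716, edgeR), and of −0.59 for SMAD7 (adjusted p = 0.672). Without the 2 medium libraries that stood apart they were −1.26 and −0.41 (adjusted p = 0.922 and 0.941, edgeR). INHBA was chosen by values of these medium libraries, so its p-values here and in the interaction of cells and medium are no independent test. In washed cultures with all libraries, the values of the 5 genes lay between −0.32 for SMAD7 and 0.56 for SKIL. TGFBR1 was 0.25 with all washed libraries, 0.91 without those that stood apart and −0.68 without hypoxia without SPP1 replicate 2, so that its direction turned on that library. Without the libraries that stood apart TGFBR2 also changed sign, from 0.02 to −0.14, and no gene was called. The difference in the hypoxia effect between cells and medium was tested as an interaction and passed for none of the 5 genes by edgeR or DESeq2 (0.481% of IDs called, 1 gene at an unadjusted p under 0.05). That gene was TGFBR2, at −1.22 (adjusted p = 0.530, edgeR), −1.30 without the 2 medium libraries and −1.03 without the 4 libraries with RAW264.7 cells that stood apart. Between cells and washed cultures the interaction also passed for none by either tool (0.173% of IDs called, 0 genes at an unadjusted p under 0.05).

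SPP1 given to the RAW264.7 cells was compared in the same way. With RAW264.7 cells present, none of the 5 genes was called by edgeR or DESeq2 in cells (0% of IDs called by edgeR, 87 of 5193 at an unadjusted p under 0.05) or in washed cultures (0.0193% called, 527 at an unadjusted p under 0.05), and none of the 5 had an unadjusted p under 0.05. The log2 differences in cells were 0.23 for INHBA, −0.38 for TGFBR1, −0.08 for TGFBR2, −0.01 for SMAD7 and 0.23 for SKIL. In washed cultures they were −0.10, 0.39, −0.22, −0.46 and −0.19 in the same order. All 3 washed libraries that stood apart had received SPP1, and without the libraries that stood apart the washed values were −0.25, −0.46, 0.24, −0.15 and 0.39. The directions of TGFBR1, TGFBR2 and SKIL thus turned, with none of the values called. In cells the values were then 0.33, −0.42, −0.26, −0.08 and 0.02. The widest of these intervals, that of INHBA in washed cultures, reached from −1.04 to 0.85, so that differences within it were not detectable with these libraries. In medium, where INHBA was 5.05-fold lower, the log2 differences of the other genes, given without a test, were −0.20 for TGFBR1, 0.05 for TGFBR2, −0.75 for SMAD7 and −0.37 for SKIL. Among the libraries behind the SMAD7 value were the 2 medium libraries that stood apart, both without SPP1. Without them, the 3 remaining libraries without SPP1 had 27.2, 28.8 and 34.8 CPM and the 6 with SPP1 ranged from 15.5 to 57.8 CPM, so that the groups overlapped.

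The patterns of the 5 genes over the 13 groups were compared by Pearson's r of mean log2 CPM, as a description over groups that share the naive libraries. By mean CPM the naive group was the highest for INHBA, TGFBR1, SMAD7 and SKIL, so it can weigh heavily in r. Values of r without the naive group were not computed. SMAD7 and TGFBR1 were most alike (r = 0.75), followed by INHBA and SMAD7 (0.59), INHBA and SKIL (0.58) and SMAD7 and TGFBR2 (0.56). SKIL and TGFBR2 were the only pair with a negative value (−0.16). Over all 5193 IDs, the pattern most like that of INHBA was that of ENSG00000095794.19 (r = 0.88, n = 13), with 86.9 and 130 CPM in naive cells and 19.5 to 259 CPM in the other libraries. Next came ENSG00000132359.15 (r = 0.85, n = 13), with 23.4 and 27.4 CPM in naive cells and 0.967 to 19.8 CPM elsewhere. Neither of them showed the gap between the naive libraries seen for INHBA.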

How the data were processed

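RNA of 37 spleen cell samples was made into 3′ libraries with a QuantSeq kit that adds unique molecular identifiers (UMIs). Per the series text, the authors trimmed reads with bbduk, used STAR 2.7.10b for alignment to GRCh38 and obtained gene counts by featureCounts (Rsubread 2.0.3). The deposited values are raw counts per gene ID, all whole numbers. The annotation release, the treatment of multiply aligned reads and the use of UMIs are not given in the sources used here, so a count may hold PCR copies, and the limit of 3 counts covers counting error only. GRCh38 is human and the samples are mouse, and 0 of the 60708 IDs occurred in the mouse gene table used here. No positions, sequences or further pathway or cell type genes are therefore given, and the lists planned for them were not run.

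The 8 genes and all tests were chosen with earlier results of these data known. Groups followed the treatment labels. In R 4.3.3, edgeR 4.0.16 kept IDs by filterByExpr with a minimum count of 10 (5193 of 22657 with a count, holding 97.8% to 99.4% of each library's counts). After TMM scaling, all 37 libraries entered 1 quasi-likelihood model whose terms were the 13 group means. Contrasts averaged groups with equal weight, and p-values were adjusted by Benjamini-Hochberg over all tested IDs. The code was tested on simulated data. CPM are counts scaled to the total of a library's tested IDs times its TMM factor, and log2 CPM used a prior count of 2. Replicate libraries differed by more than sampling noise (chi-square per degree of freedom 2.78 to 42.9), so each counted once. Genes other than the 8 were named only as the 2 IDs whose pattern over groups was most like that of INHBA. Alternatives were relative log expression scaling, no filter, DESeq2 1.42.0, only the groups compared, the replicate number as a block, no libraries that stood apart, and each library left out in turn.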

Additional observations from a re-analysis of the deposited data

Results flagged for a closer look

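For each tested gene, sets of 4 to 10 libraries were searched for a single library far from the rest by Dixon's criterion. Of 60 sets searched, 7 held one, and chance gives about 1 in 20. The sets overlap, so 4 libraries account for all 7, and each was the lowest of 6. Cells normoxia with SPP1 replicate 2 had 3.35 CPM of TGFBR1 (4 counts), with the next library at 10.4 CPM among normoxic cells cultures and at 8.20 CPM among cells cultures with SPP1. For TGFBR2, cells hypoxia with SPP1 replicate 3 had 4.10 CPM (5 counts) beside 13.2 CPM in the next of the cells cultures with SPP1. Washed normoxia with SPP1 replicate 1 had 3.31 CPM of TGFBR2 (2 counts) beside 10.2 CPM in the next normoxic washed culture. The same library had 4.97 CPM of SKIL (3 counts) beside 35.8 CPM. Cells hypoxia without SPP1 replicate 2 had 19.9 CPM of SKIL (17 counts), with the next at 63.8 CPM among hypoxic cells cultures and at 60.0 CPM among cells cultures without SPP1. Both libraries with low SKIL also stood apart on the second principal component.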

How the results depend on the processing

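Of 1489 values of single genes recomputed under the alternatives, 1467 kept their direction and their side of the threshold or were uncalled in both. In 103 of them the sign changed with neither value called, 19 lost the call, 2 gained it and 1 reversed. The reversed value was INHBA in cells against naive, 0.21 without naive replicate 1 (adjusted p = 0.868, edgeR) and −4.13 without naive replicate 2. The number of called genes changed by over 1.5 times, or to or from 0, in 7 cases. In 334 cases it was unchanged or changed by at most 1.5 times. Leaving out each library in turn gave 2 to 4 called genes in cells against naive and 2 to 4 in washed against naive (2 without naive replicate 1 in both), and 0 to 2 in washed against cells. Without the 4 libraries with RAW264.7 cells that stood apart, 0 genes were called in washed against cells, and with only the groups compared in the model, 1 gene was called for hypoxia in cells. TGFBR2 in washed against medium lost its call in 10 of 30 alternatives, among them relative log expression scaling (0.64, adjusted p = 0.0540, edgeR), no filter (adjusted p = 0.175) and leaving out the 2 medium libraries that stood apart (0.74, adjusted p = 0.0601). SMAD7 and TGFBR2 in cells against medium, and TGFBR1, SMAD7 and SKIL in washed against medium, kept theirs in all 30. INHBA with SPP1 in medium, the value that chose the gene, ranged from −2.73 to −2.09 over 17 alternatives and is given as a description. Of pairs of libraries with the same replicate number, 36 of 210 had a correlation of deviations over 0.1, beside 67 of 421 with other numbers. The deviations include those of libraries that stood apart, so this check cannot exclude that the numbers pair libraries. The replicate block changed no call of the 5 genes, with SMAD7 in medium against naive at −2.72. Without the filter, SMAD3 was called against naive in medium (adjusted p = 0.0266, edgeR) and washed cultures (adjusted p = 0.0342), from at most 3 counts a library. In that fit 1688 and 1667 of 22657 IDs were called in either direction in these comparisons. The cause of these changes was not tested. With 2 naive libraries and few counts of TGFBR1 and TGFBR2, small differences were not detectable.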
